A study of Mus musculus and Homo sapiens with 14 samples.

Results

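The genes of the proteasome and its assembly were followed through RNA-seq libraries of plasma cells and plasma cell tumour lines with and without an intact IRF4 gene. Members were taken by symbol: Psma, Psmb, Psmc, Psmd, Psme and Psmg in the mouse count table and their capital forms in the human one, with pseudogenes left out. The rule gave 48 of 26221 named entries in mouse and 52 of 27945 in human. By role the 48 mouse genes were 8 of the 20S alpha ring, 4 structural and 3 constitutive catalytic genes of the 20S beta ring, 5 of the immunoproteasome and 1 of the thymus-specific core. The others were 6 ATPases and 3 other subunits of the 19S base, 8 subunits of the 19S lid, 3 chaperones of 19S base assembly, 4 chaperones of 20S assembly and 2 other activators. The symbol rule also caught Psmc3ip, a recombination factor that is not a subunit. In human it caught PSMC3IP and 4 antisense RNAs (PSMA3-AS1, PSMB8-AS1, PSMD6-AS2 and PSMG3-AS1), so 47 of the 52 human entries are proteasome genes proper.

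The proteasome degrades ubiquitin-tagged proteins. Its barrel-shaped 20S core is built from alpha rings, which gate the entry, around beta rings, of which 3 subunits cut peptide bonds: Psmb6 (caspase-like), Psmb7 (trypsin-like) and Psmb5 (chymotrypsin-like). The 19S regulator binds, unfolds and feeds in the substrate. In lymphocytes and in cells exposed to interferon, Psmb9, Psmb10 and Psmb8 take the places of Psmb6, Psmb7 and Psmb5, and the Psme1 and Psme2 activator caps the core, a form known for supplying peptides to MHC class I. Plasma cells make large amounts of immunoglobulin, and Psmb5 is the main target of the proteasome inhibitors used in myeloma.

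Donor plasma cells labelled Irf4 flox/- (2 libraries) and Irf4 flox/+ (2 libraries) were sorted from the spleens of congenically marked hosts that had received marrow of the given genotype together with uMT marrow. Both groups carry the floxed allele, and the hosts of both had tamoxifen on days 1, 2, 7 and 8 and were harvested on day 14; the driver of the Cre recombinase is not given in the sources used here. MPC-11, a mouse plasmacytoma line, and MM.1S, a human myeloma line, were each infected with Cas9 and either a guide against IRF4 (2 libraries per line, genotype label Irf4 -/-) or an empty vector (2 libraries per line, genotype label WT). All 4 groups of line cells received doxycycline and were sorted on day 3. Wild-type bone marrow plasma cells and wild-type follicular B cells of the spleen had 1 library each. The strain label is C57BL/6 for every mouse library, MPC-11 included. Nothing in the labels says whether libraries of 1 group came from separate animals or cultures, so p-values measure only the spread between these 2 libraries a group, which may be technical. The lines were sorted as bulk populations, and whether they were clones is not given in the sources used here.

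The 14 libraries held 18680882 to 26993510 counts each in entries with a gene name. CPM values (counts scaled to a common library total) were scaled with TMM factors, over all libraries of a species for the Irf4 values and marker sums of this paragraph and within each comparison after it. A gene's CPM can therefore differ between comparisons. An SE after a log2 fold change is the size of that change over the square root of edgeR's F statistic. Irf4 itself had 171 and 89.1 CPM in MPC-11 guide libraries, against 295 and 302 CPM with empty vector, and IRF4 had 142 and 191 CPM in MM.1S guide libraries, against 489 and 434 CPM with empty vector. In the libraries labelled flox/- Irf4 had 133 and 159 CPM, against 180 and 87.2 CPM in those labelled flox/+, so the splenic groups overlapped; these counts cover the whole gene and do not test the deleted part. Plasma cell markers were detected in all splenic and line libraries, though Mzb1 had at most 5.45 CPM in the MPC-11 comparison. The B cell factor Pax5 (PAX5) was at 0 in both lines. Of 10 follicular B cell markers 6 or 7 were at 0 in each MPC-11 library, and of 9 in MM.1S 6 or 7. The others, among them Cd79b (CD79B), summed to 189 to 605 CPM in MPC-11 and 69.5 to 134 CPM in MM.1S. The splenic libraries were not plasma cells alone: 12 macrophage markers summed to 8416 and 801 CPM in flox/- against 622 and 251 CPM in flox/+ libraries, with no marker at 0 in either group. The 10 T cell markers summed to 268 and 613 CPM in flox/-, against 39.8 and 74.0 CPM in flox/+ libraries, and 7 erythroid markers to 891 and 77.0 CPM against 45.8 and 7.29 CPM. The 10 follicular B cell markers summed to 1617 and 2192 CPM against 1524 and 1855 CPM, with overlap, and 9 of the 10 had a log2 fold change above 0 (median 1.37). The 7 plasma cell markers summed to 35942 and 33160 CPM in flox/- against 78652 and 98410 CPM in flox/+. In bulk libraries fewer cells of a type and less RNA per cell cannot be told apart.

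The promoters of the Psmb6 and Psmb9 pair, of the Psmb5 and Psmb8 pair and of the activator gene Psme1 are shown because comparisons below turn on these genes. Each is 250 bases before and 50 after the RefSeq gene start (build GRCm38.p6), 5′ to 3′ on the gene's strand, with base 1 the first printed. Psmb6 lies at chr11:70525107-70525406 on the plus strand and Psmb5 at chr14:54617946-54618245 on the minus strand. Psmb9 lies at chr17:34187281-34187580 on the minus strand, Psmb8 at chr17:34197945-34198244 on the plus strand, both in the MHC region, and Psme1 at chr14:55578244-55578543 on the plus strand. Capitals mark a match on either strand to 1 of 4 words: TGACNNNGC (an antioxidant response element, ARE), GAAANNGAA (core of an interferon-stimulated response element, ISRE), GGAANNGAA (core of an Ets-IRF composite element, EICE) and TTCNNNGAA (a STAT site, GAS).
Psmb6: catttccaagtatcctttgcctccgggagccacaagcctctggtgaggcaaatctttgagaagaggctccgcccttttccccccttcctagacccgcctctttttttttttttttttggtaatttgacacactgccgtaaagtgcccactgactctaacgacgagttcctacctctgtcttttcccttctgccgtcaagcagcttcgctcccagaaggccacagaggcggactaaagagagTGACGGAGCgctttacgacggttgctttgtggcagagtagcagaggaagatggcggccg
Psmb9: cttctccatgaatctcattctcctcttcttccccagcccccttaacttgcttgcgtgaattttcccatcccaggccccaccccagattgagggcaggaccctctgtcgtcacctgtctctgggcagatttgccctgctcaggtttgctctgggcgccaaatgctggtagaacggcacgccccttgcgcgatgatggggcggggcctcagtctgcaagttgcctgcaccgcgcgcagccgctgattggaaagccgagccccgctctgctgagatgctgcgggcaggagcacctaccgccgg
Psmb5: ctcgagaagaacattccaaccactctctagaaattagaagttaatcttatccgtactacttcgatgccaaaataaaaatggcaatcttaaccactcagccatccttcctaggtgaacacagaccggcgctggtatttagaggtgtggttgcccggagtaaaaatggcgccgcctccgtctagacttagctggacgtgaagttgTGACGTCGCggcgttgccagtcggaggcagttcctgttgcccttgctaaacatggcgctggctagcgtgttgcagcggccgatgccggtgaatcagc
Psmb8: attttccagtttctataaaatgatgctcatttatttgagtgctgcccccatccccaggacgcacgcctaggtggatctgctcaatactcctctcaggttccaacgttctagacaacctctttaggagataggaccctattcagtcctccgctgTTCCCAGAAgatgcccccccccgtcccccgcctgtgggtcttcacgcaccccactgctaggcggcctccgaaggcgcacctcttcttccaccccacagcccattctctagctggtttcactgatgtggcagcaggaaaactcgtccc
Psme1: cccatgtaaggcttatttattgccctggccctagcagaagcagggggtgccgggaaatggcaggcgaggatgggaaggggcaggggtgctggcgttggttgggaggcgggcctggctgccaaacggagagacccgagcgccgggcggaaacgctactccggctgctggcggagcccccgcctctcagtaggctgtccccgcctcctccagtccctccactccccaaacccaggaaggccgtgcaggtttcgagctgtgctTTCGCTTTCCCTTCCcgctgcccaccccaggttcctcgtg
Psmb6 held the ARE word at bases 242 to 250 and Psmb5 at bases 204 to 212, both on the gene's strand. Psmb8 held the GAS word, which reads the same on both strands, at bases 154 to 162. The promoter of Psmb10, not printed, held the EICE word at bases 179 to 187 on the opposite strand. In Psme1 the ISRE word at bases 261 to 269 and the EICE word at bases 267 to 275, both on the opposite strand, overlap, so the capitals run together. Psmb9 held none of these 4 words in this window. Among 43 promoter entries of 40 members, 6 held the ARE (14%, against 12.4% of all 32851 mouse promoters) and 7 the ISRE (16.3% against 8.56%: Psmb3, Psmb4, Psmc2, Psmd4, Psmd9, Psme1 and Psmg4). The EICE was found in 3 (6.98% against 8.24%: Psmb10, Psmc2 and Psme1), the GAS in 3 (6.98% against 8.3%: Psmb8, Psmd2 and Psmg1) and the CCAAT box, not capitalised, in 15 (34.9% against 37.4%). Psmc3, Psmd3, Psmd7, Psma8, Psmg2, Psmb7, Psmb1 and Psmb2 had no entry.

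Before any comparison, the libraries differed in how much of their RNA was proteasome and in which form. Members took 0.820 and 0.814% of counts outside immunoglobulin genes in the libraries labelled flox/-, against 0.831 and 1.01% in flox/+. They took 1.04 and 1.10% in MPC-11 guide cells against 1.43 and 1.08% with empty vector, and 0.970 and 1.10% in MM.1S guide cells against 1.04 and 1.33% with empty vector. The share was 0.820% in the bone marrow plasma cell library and 0.876% in the follicular B cell library. Of 46 members 29 were lower in the bone marrow plasma cell library than in the follicular B cell one, against 59.2% of all genes, and 3 were lower by more than 1 on the log2 scale, against 28.5%. In each of the 3 pairs 1 control library (flox/+ or empty vector) stood highest. The other lay within or close to the range of the flox/- or guide libraries.

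The 5 immunoproteasome genes made up 28.8 and 27.1% of member counts in flox/- and 28.6 and 31.1% in flox/+ libraries, 29.3% in bone marrow plasma cells and 30.8% in follicular B cells. In MPC-11 they made up 22.8 and 20.9% with the guide and 19.9 and 19.7% with empty vector, and in MM.1S 10.6 and 9.74% with the guide and 9.27 and 8.75% with empty vector. Within each line both guide libraries lay above both empty-vector libraries, and in the splenic pair the groups overlapped.

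**Figure D1:**
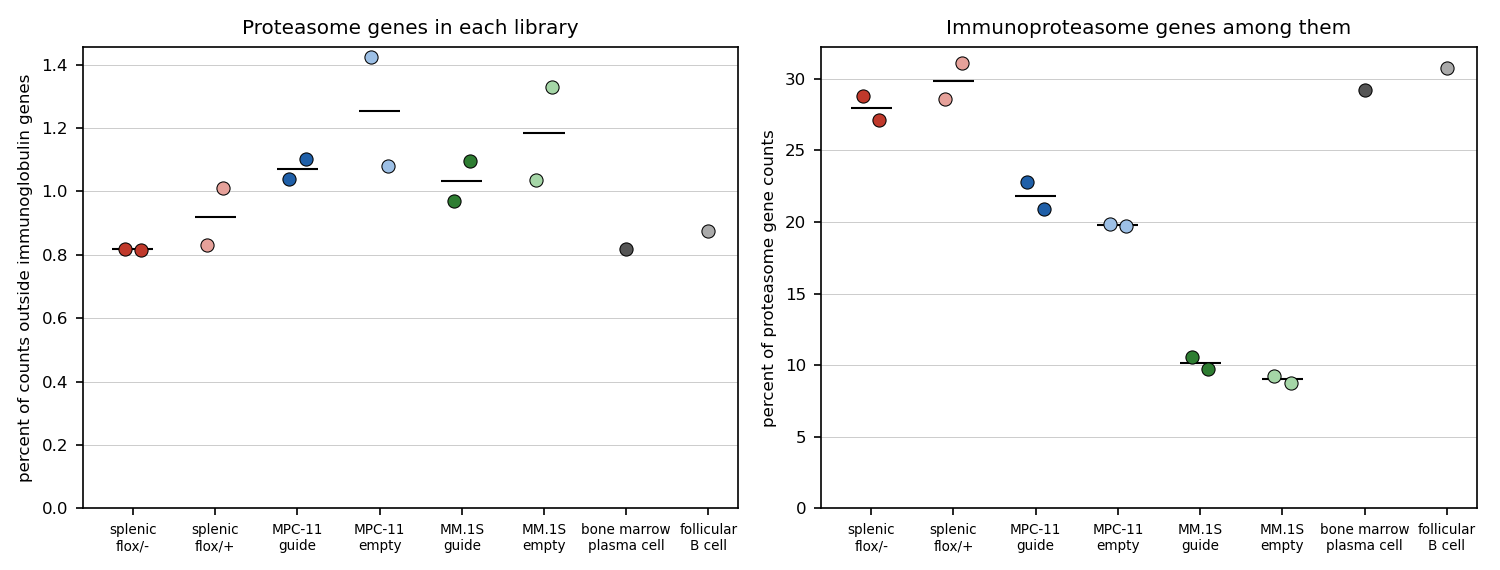
Share of counts outside immunoglobulin genes taken by proteasome genes (left, percent) and share of those taken by the 5 immunoproteasome genes (right, percent). Points are libraries and bars are means of 2; the immunoproteasome share is 27.1 to 31.1% in primary cells, 19.7 to 22.8% in MPC-11 and 8.75 to 10.6% in MM.1S.

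Levels between genes were compared on the authors' log2 FPKM, which allows for gene length. In the 10 mouse libraries the immunoproteasome gene Psmb8 had a log2 FPKM of 9.79 to 10.41, and its constitutive counterpart Psmb5 one of 6.54 to 8.09. Psmb9 had 8.18 to 9.34 and its counterpart Psmb6 8.25 to 9.36, so this pair was near parity. In MM.1S PSMB8 had a log2 FPKM of 6.59 and 6.54 with the guide and 6.16 and 6.32 with empty vector, close to the 6.47 and 6.43, and 6.68 and 6.52, of PSMB5. PSMB9 had 6.78 and 6.54 with the guide and 6.37 and 6.58 with empty vector. PSMB6 had 9.03 and 9.11 with the guide and 9.35 and 9.70 with empty vector, and lay above PSMB9 in each library. PSMB10 (8.12 to 8.61) and PSME1 (7.98 to 8.24) were the immunoproteasome genes with the highest log2 FPKM in MM.1S.

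The median log2 FPKM of the structural beta genes was 7.63 to 8.54 over all replicated libraries, and that of the alpha ring 6.62 to 7.22. The medians of both chaperone groups lay at 4.60 to 6.81, and that of the activators Psme3 and Psme4 at 3.41 to 4.74. PSMD2, a scaffold subunit of the 19S base, had a log2 FPKM of 8.89 to 9.22 in MM.1S, against 6.11 to 7.38 for Psmd2 in the mouse libraries, 2 tables that were normalized separately. Psmb11 (PSMB11), the thymus-specific catalytic gene, had 0 counts in every library, as had PSMA8. Psma8, a testis form of an alpha subunit, had at most 1.32 CPM in the splenic comparison. PSMC1 had only 1.49 to 2.80 CPM in MM.1S; it has near-identical copies in the human genome, how shared reads were counted is not given in the sources used here, and its level is uncertain.

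**Figure D2:**
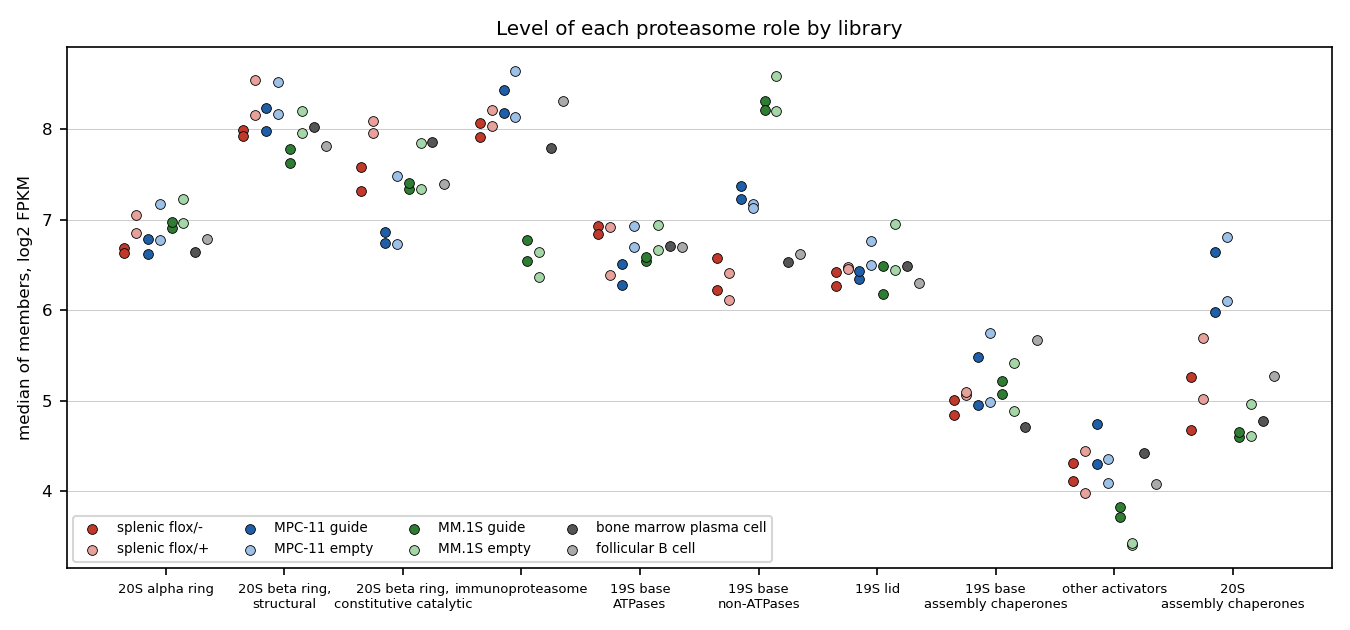
Median log2 FPKM of the members of each role in each library. Points are libraries, coloured by group; the immunoproteasome median is 7.79 to 8.64 in the mouse libraries and 6.37 to 6.78 in MM.1S, while the 20S alpha ring lies at 6.62 to 7.22 in all replicated groups.

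In splenic plasma cells the alpha ring and constitutive beta ring genes of the 20S core all had a log2 fold change below 0, flox/- over flox/+, at TMM scaling, though not at library size alone, and no member passed the test. With 11887 genes tested, edgeR called 0 at an adjusted p under 0.05 (background 0%), and among the 47 members tested 0 reached an unadjusted p under 0.05, which 8.63% of all genes did as higher and 3.85% as lower. DESeq2 called 0 members, and of all genes 3.82% higher and 1.43% lower. Of the 47, 13 had a log2 fold change above 0 and 34 one below 0, against 54.3% and 45.7% of all genes. The median of the members was -0.23, against 0.09 for all genes. On the authors' log2 FPKM the members' median was -0.20 and that of all genes -0.17, and scaling by library size alone, which moves the median of all genes by 0.89, put 46 of the 47 above 0.

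The 7 genes of the constitutive beta ring were all lower in flox/- at TMM scaling and higher at library size alone. Psmb6 had 128 and 121 CPM in flox/-, against 176 and 263 CPM in flox/+ libraries. Its groups did not overlap, and its log2 fold change was -0.81 ± 0.33 (edgeR adjusted p = 0.418). Psmb5, the chymotrypsin-like subunit, had 54.7 and 43.2 CPM in flox/- against 70.8 and 82.2 CPM in flox/+, a log2 fold change of -0.64 ± 0.30 (edgeR adjusted p = 0.496), again without overlap. Psmb7 had 17.6 and 22.6 CPM against 32.6 and 23.6 CPM, a log2 fold change of -0.48. Of the structural beta genes, Psmb3 stood at -0.74, Psmb1 at -0.63, Psmb2 at -0.61 and Psmb4 at -0.08. The alpha ring genes ranged from -0.50 (Psma3) to -0.21 (Psma4), and 6 of the 8 had groups that did not overlap.

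Across the module 3 members were higher and 19 lower without overlap, against 25.7% and 18.3% of all genes tested. The 19S genes were mixed in sign. Psmc1, an ATPase of the base, stood at 0.47 ± 0.36, with 60.4 and 52.6 CPM in flox/- against 30.9 and 50.5 CPM in flox/+. The base chaperone Psmd9 stood at 0.55 and Psmc5 at 0.34, while the lid subunit Psmd7 stood at -0.51 and Psmd13 at -0.43. Among the lid genes Psmd3 (0.18) and Psmd6 (0.14) were above 0, as were Psmd1 of the base (0.12) and Psme4, the nuclear activator (0.26). The 20S assembly chaperone Psmg2 had 5.63 and 6.65 CPM in flox/- against 9.65 and 14.6 CPM in flox/+ (log2 fold change -0.98 ± 0.50, edgeR adjusted p = 0.544), and Psmg4 stood at -0.75. Psmc3ip, not a subunit, stood at 0.81 with at most 3.53 CPM.

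Of the immunoproteasome genes, Psmb8 had 444 and 394 CPM in flox/- against 484 and 741 CPM in flox/+ (-0.55 ± 0.35), Psmb9 had 150 and 140 CPM against 181 and 193 CPM (-0.37 ± 0.28), and neither pair of groups overlapped. Psmb10 stood at -0.37, Psme1 at -0.01 and Psme2 at 0.09, each with overlap. The macrophage, T cell, erythroid and plasma cell marker sums given above differ between the same libraries, as do most single follicular B cell markers, and their part in these values was not tested. Without the flox/+ library that held the highest value of 29 of the 47 members, the median of the members was -0.10, against 0.15 for all genes.

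In MPC-11 the guide libraries had lower values than empty vector for most members, and 1 of the 2 empty-vector libraries held most of the highest values. edgeR called 2 of 10670 genes (0.0187%) and 0 of 46 members, and 0 members reached an unadjusted p under 0.05, against 3.49% of all genes higher and 2.56% lower. DESeq2 called 0 members, and of all genes 1.08% higher and 0.466% lower. Of the 46 members 8 had a log2 fold change above 0 and 38 one below, against 48.5% and 51.5% of all genes. The median was -0.24 for members and -0.02 for all genes; library size alone shifts the median of all genes by -0.16 and left 43 members below 0. Groups did not overlap for 2 members higher and 10 lower, against 16.9% and 16.5% of all genes.

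Psmc4, an ATPase of the 19S base, had 69.9 and 86.1 CPM with the guide against 136 and 113 CPM with empty vector (-0.68 ± 0.31, edgeR adjusted p = 0.878), without overlap. Psmc1 stood at -0.56, with 84.5 and 67.5 CPM against 127 and 96.8 CPM, also without overlap, and the 6 base ATPases were all below 0. Psmb6 had 260 and 284 CPM with the guide against 553 and 278 CPM with empty vector (-0.61 ± 0.38), so the second empty-vector library lay among the guide libraries. The same held for Psmd13 of the lid (61.1 and 62.2 CPM against 134 and 61.6 CPM, -0.67), while Psmb5 (69.6 and 83.4 CPM against 133 and 76.0 CPM, -0.45) overlapped in the same way. For Psma3 (28.8 and 32.6 CPM against 59.5 and 26.8 CPM, -0.49) that library lay below both guide libraries. Psmb7 stood at -0.13.

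Immunoproteasome genes in MPC-11 lay close to 0: Psmb8 at -0.11, Psmb9 at -0.19, Psmb10 at 0.07 and Psme2 at -0.06. Psme1 had 314 and 318 CPM with the guide against 323 and 210 CPM (0.25 ± 0.32). The alternative activators stood above 0: Psme3 had 148 and 146 CPM against 114 and 127 CPM (0.29 ± 0.28), without overlap, and Psme4 stood at 0.41. Other members above 0 were Psmd2 (0.16), Psmd3 (0.16), Psmg2 (0.10) and Psma6 (0.012). Among the role extremes that were low were Psmb3 (-0.46), Psmd10 (-0.37), Psmg4 (-0.34) and Psmc3ip (-0.59). The first empty-vector library held the highest value of 39 of the 46 members, and without it 18 members were below 0 and the median was 0.05, against 0.04 for all genes. Immunoglobulin genes took 30.5 and 29.7% of counts with the guide and 32.8 and 16.7% with empty vector, the first empty-vector library having the higher share; the part of this in the values was not tested.

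In MM.1S most members had lower values with the guide than with empty vector, while 3 of the 5 immunoproteasome genes stood above 0. edgeR called 1 of 12696 genes (0.00788%) and 0 of 50 members, and 2 members reached an unadjusted p under 0.05, both lower, against 5.42% of all genes higher and 4.58% lower. DESeq2 called 0 members, and of all genes 1.46% higher and 1.29% lower. Of the 50, 10 stood above 0 and 40 below, against 50.7% and 49.3% of all genes, with a median of -0.20 against 0.01. Groups did not overlap for 6 members higher and 16 lower, against 22.4% and 18.9% of all genes.

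PSMB4, a structural beta subunit, was 1 of the 2: it had 138 and 173 CPM with the guide against 203 and 246 CPM with empty vector (-0.53 ± 0.22, edgeR adjusted p = 0.486), without overlap. The other was PSMC3IP, no subunit, with 10.1 and 16.0 CPM against 23.3 and 34.9 CPM (-1.15 ± 0.37, edgeR adjusted p = 0.362). PSMB6 had 456 and 490 CPM against 549 and 719 CPM (-0.42 ± 0.20), PSMB5 had 134 and 135 CPM against 156 and 147 CPM (-0.17 ± 0.19), and neither overlapped. PSMB7 stood at -0.27. The base ATPase PSMC6 stood at -0.54, the chaperone PSMG1 at -0.44, the lid subunit PSMD11 at -0.43, PSMA3 at -0.38 and PSMD1 at -0.16.

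On the immunoproteasome side PSMB8 had 166 and 168 CPM with the guide against 125 and 146 CPM with empty vector (0.30 ± 0.20), without overlap. PSME1 had 349 and 333 CPM against 300 and 312 CPM (0.16 ± 0.18), also without overlap, and PSMB9 had 113 and 97.1 CPM against 86.1 and 101 CPM (0.17 ± 0.22), with overlap. PSMB10 went the other way, with 271 and 306 CPM against 314 and 408 CPM (-0.33 ± 0.21), and PSME2 stood at -0.19. PSME4 had 21.9 and 16.5 CPM against 13.9 and 11.9 CPM (0.57 ± 0.33), PSMD5 stood at 0.22, PSME3 at 0.19, and the antisense RNA PSMD6-AS2 was at or under 2.31 CPM in all 4 libraries. The second empty-vector library held the highest value of 37 of the 50 members, and without it 25 stood below 0 and the median was -0.02, against 0.02 for all genes.

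**Figure D3:**
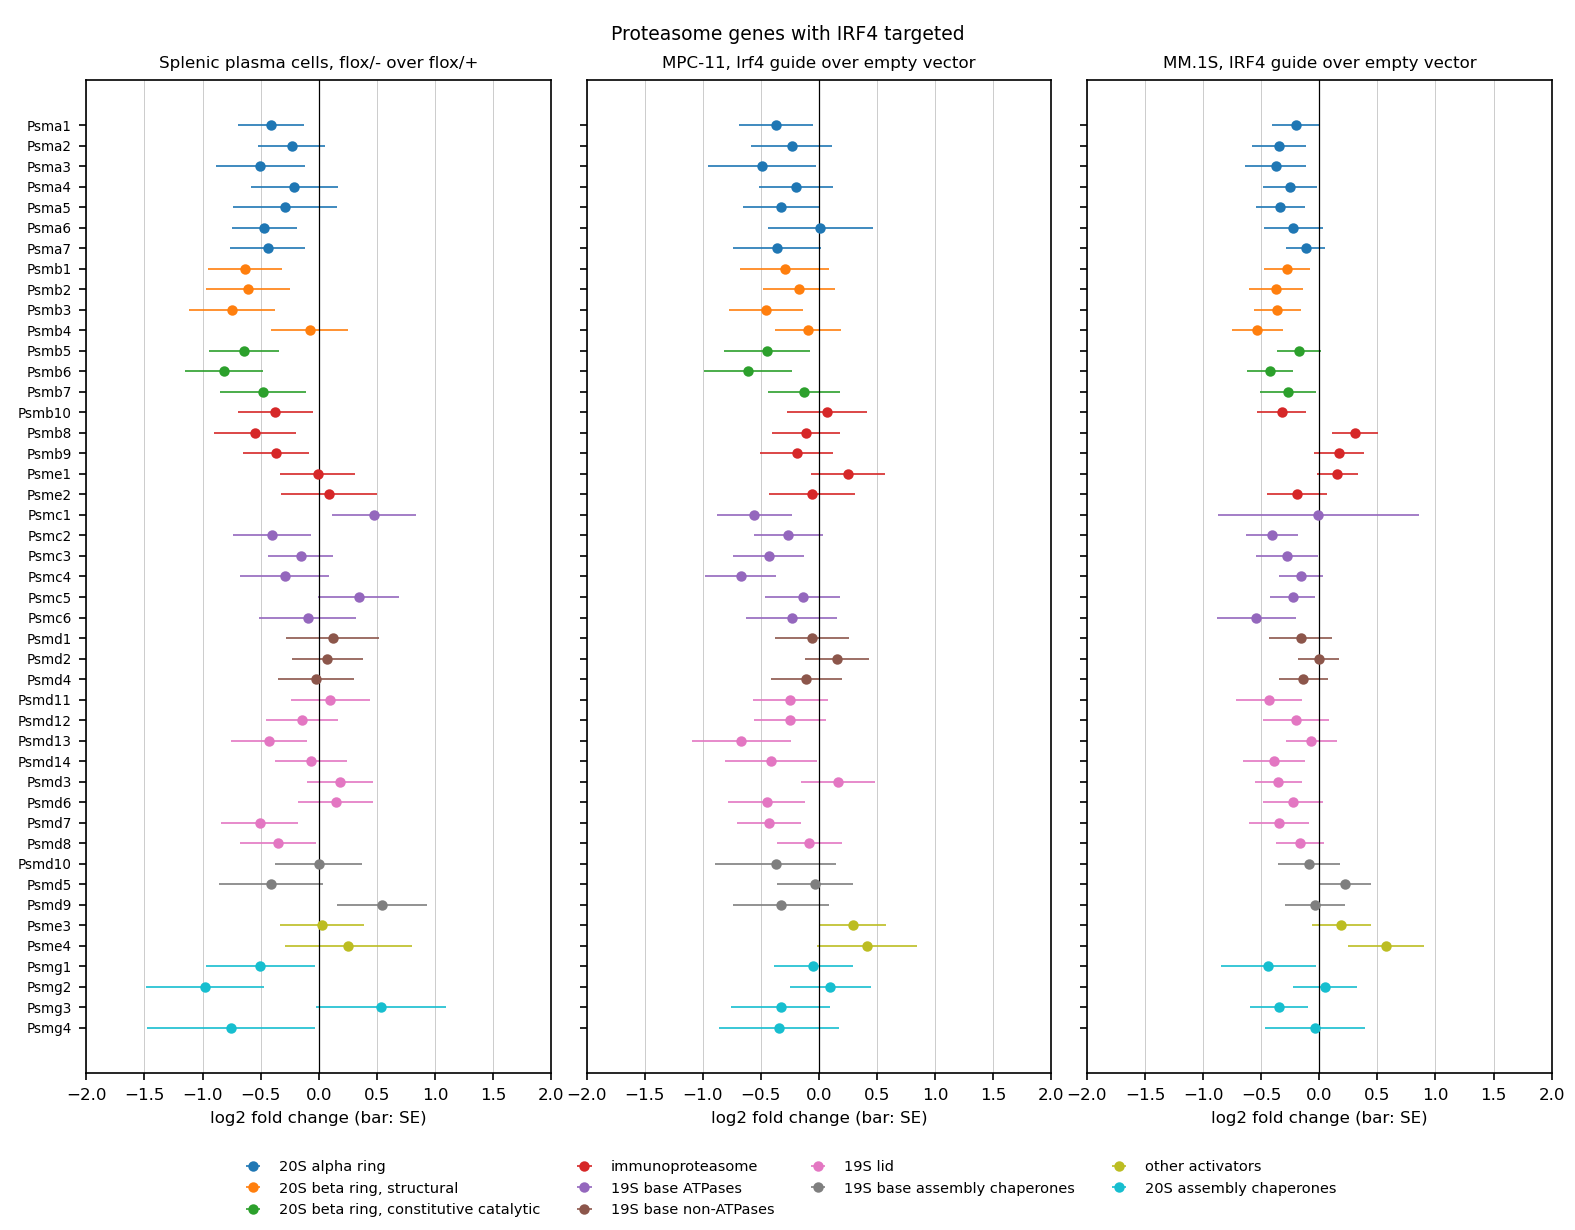
Log2 fold change of each proteasome gene in the 3 IRF4 comparisons (left to right: splenic flox/- over flox/+, MPC-11 guide over empty vector, MM.1S guide over empty vector), coloured by role; points are edgeR estimates from 2 libraries against 2 and bars their SE. At TMM scaling, though not in the splenic panel at library size alone, the constitutive beta ring lies below 0 in all 3 panels and Psme3 and Psme4 above 0, and no gene shown passed the adjusted test.

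The 3 IRF4 comparisons share no library, so their signs could be counted together. Of 46 genes tested in all 3, 26 (56.5%) were lower in all 3, against 1333 of 8046 genes (16.6%), and 2 (4.35%, Psme3 and Psme4) were higher in all 3, against 16.3%. Lower in all 3 were 7 of 7 constitutive beta genes, 6 of 7 alpha genes, 5 of 8 lid genes, 4 of 6 base ATPases and 0 of 5 immunoproteasome genes. With the control library highest in members left out of each comparison, 6 of 46 (13%) were lower in all 3, against 12.1% of all genes. These libraries were picked for their high members, which by itself lowers the count. Leaving out the other control library keeps the one highest in members, which by itself favours values below 0. Members below 0 per comparison were then 35 of 47 (splenic), 41 of 46 (MPC-11) and 39 of 50 (MM.1S). Their medians were -0.36, -0.41 and -0.43, against 0.32, 0.05 and 0.07 for all genes. At library size alone the number lower in all 3 was 0, against 2.65% of all genes, since the splenic values then lay above 0. For the splenic effect minus the MPC-11 effect, edgeR called 0 of 12993 genes (0%) and 0 of 47 members; 0 members and 807 genes (6.21%) reached an unadjusted p under 0.05, and the smallest adjusted p of a member was 0.859.

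The ratio of an immunoproteasome gene to its constitutive counterpart within a library does not depend on scaling between libraries. Psmb9 over Psmb6 in counts was 1.17 and 1.15 in flox/-, against 1.03 and 0.734 in flox/+ libraries. In MPC-11 it was 0.738 and 0.783 with the guide, against 0.509 and 0.691 with empty vector, and in MM.1S PSMB9 over PSMB6 was 0.248 and 0.198 with the guide, against 0.157 and 0.141 with empty vector. In each of the 3 comparisons both flox/- or guide libraries lay above both flox/+ or empty-vector libraries. In the splenic pair the markers of other cells differ between the same libraries, with 12 of 12 macrophage, 9 of 9 tested T cell and 9 of 10 follicular B cell markers above 0 in flox/- over flox/+. The follicular B cell library had a Psmb9 over Psmb6 of 1.31, above each splenic library. The part of such cells in the splenic ratio was not tested.

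The mean log2 ratio differed by 0.42 in splenic cells, 0.36 in MPC-11 and 0.58 in MM.1S, and on the authors' log2 FPKM by 0.40, 0.40 and 0.64, again with no overlap. Leaving out any 1 library gave differences between 0.14 and 0.74. Their sign was fixed by the lack of overlap and is no further check. With 2 libraries against 2 an exact two-sided permutation test cannot go below p = 0.333 in 1 comparison, so no test was made, and the ratio was 1 of 4 examined. PSMB8 over PSMB5 was 1.24 and 1.24 with the guide in MM.1S, against 0.798 and 0.993 with empty vector, a difference of 0.48 without overlap. In the mouse comparisons that ratio overlapped: 8.11 and 9.13 in flox/- against 6.83 and 9.02 in flox/+ (0.13), and 14.7 and 11 with the guide against 9.13 and 11.7 with empty vector in MPC-11 (0.30). Psmb10 over Psmb7 and Psme1 over Psme3 overlapped in all 3, with differences between -0.07 and 0.23.

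**Figure D4:**
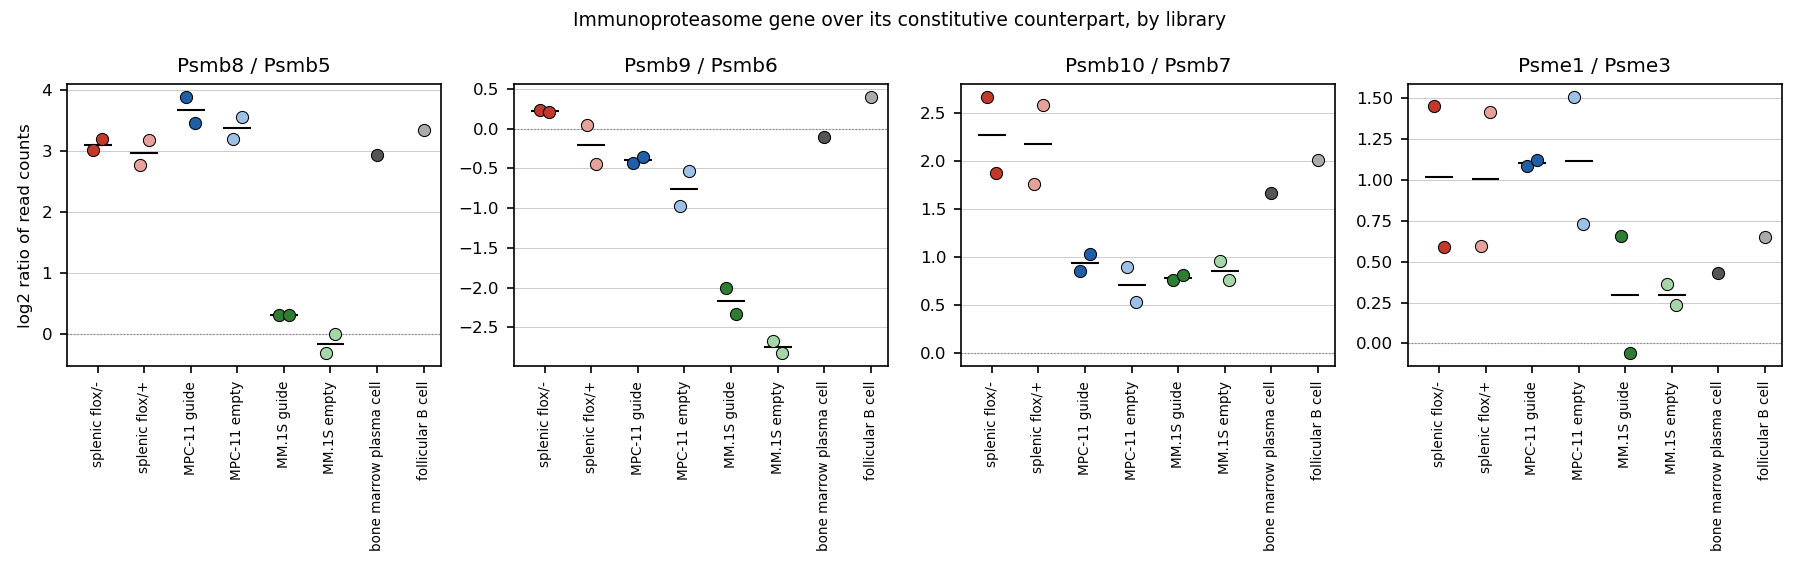
Log2 ratio of read counts of an immunoproteasome gene to its constitutive counterpart (Psme1 to Psme3 in the last panel), by library, with bars at group means of 2 libraries. Psmb9/Psmb6 is higher in the flox/- or guide libraries than in the flox/+ or empty-vector libraries in all 3 pairs. Both Psmb8/Psmb5 and Psmb9/Psmb6 are far lower in MM.1S than in the mouse libraries.

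Genes that work beside the proteasome were counted in 5 lists, of which no gene passed edgeR's adjusted test in any IRF4 comparison. In MPC-11 the interferon factor Irf1 had 219 and 163 CPM with the guide against 82.6 and 68.9 CPM with empty vector (1.33 ± 0.32, edgeR adjusted p = 0.498; DESeq2 adjusted p = 0.0115), without overlap. Of 10 interferon signalling genes tested there, 3 reached an unadjusted p under 0.05, all higher, against 3.49% of all genes, and DESeq2 called the same number, against 1.08%. IRF1 had 222 and 254 CPM against 196 and 136 CPM in MM.1S (0.52 ± 0.24), and Irf1 stood at 0.37 in splenic cells. The class I activator Nlrc5 had 21.7 and 32.9 CPM in flox/- against 7.72 and 1.22 CPM in flox/+ libraries (2.61 ± 0.89, edgeR adjusted p = 0.320; DESeq2 adjusted p = 0.0472), beside the marker sums above. It had 0 counts in all 4 MPC-11 libraries, and NLRC5 stood at 0.80 ± 1.22 in MM.1S.

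Of the peptide transporter genes, Tap1 stood at 0.31 and Tap2 at -0.05 in splenic cells. In MPC-11 Tap1 stood at 0.23 with overlap and Tap2 at 0.42 without overlap. In MM.1S TAP1 stood at -0.07 with overlap and TAP2 at -0.50 without overlap. The class I light chain stood at -0.63 (B2m, splenic), 0.32 (B2m, MPC-11) and 0.33 (B2M, MM.1S). Nfe2l1, the transcription factor known to raise proteasome genes when the proteasome is inhibited, stood at 0.85 ± 0.50 in splenic cells and 0.66 ± 0.38 in MPC-11, and NFE2L1 at -0.78 ± 0.38 in MM.1S, none past edgeR's adjusted test. The maturation factor Pomp stood at 0.56 and -0.24, and POMP at -0.32. The shuttle factor RAD23B had 16.5 and 18 CPM with the guide in MM.1S against 46.3 and 34.8 CPM (-1.23 ± 0.28, edgeR adjusted p = 0.278; DESeq2 adjusted p = 0.0161).

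The MPC-11 line was set against splenic plasma cells, empty vector over flox/+, a tumour line against primary cells; these 4 libraries are also the controls of 2 comparisons above. edgeR called 3175 of 11465 genes (27.7%; 12% higher and 15.6% lower) and 1 of 46 members. Psmg3, a 20S assembly chaperone, had 45.7 and 26.5 CPM in MPC-11 against 7.32 and 12.9 CPM in flox/+ and rose by 1.84 ± 0.56 (edgeR adjusted p = 0.0485). Its adjusted p was 0.0539 to 0.293 when any 1 library was left out. All 4 assembly chaperones stood above 0, with Psmg2 at 1.33, Psmg1 at 0.87 and Psmg4 at 0.20. At an unadjusted p under 0.05 stood 5 members higher and 1 lower, against 18% and 20.5% of all genes. DESeq2 called Psmg3 and Psma5 higher and Psmb9 lower, against 13.5% and 19% of all genes.

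Of the 46 members 31 stood above 0 and 15 below, against 49.5% and 50.5% of all genes, with a median of 0.24 against -0.02. Groups did not overlap for 14 members higher and 6 lower, against 33% and 33.5%. Psma5 of the alpha ring had 43.9 and 35 CPM in MPC-11 against 15.7 and 17.8 CPM (1.23 ± 0.44, edgeR adjusted p = 0.083), the lid deubiquitinase Psmd14 stood at 1.08, the ubiquitin receptor Psmd4 at 1.00 and the base ATPase Psmc6 at 0.88. The base chaperone Psmd10 stood at 0.81, Psme3 at 0.27 and Psmc3ip at 1.63. Psmb5 had 72.7 and 42.2 CPM in MPC-11 against 95.3 and 120 CPM (-0.91 ± 0.43, edgeR adjusted p = 0.167), Psmb2 stood at -0.78, Psmc4 at -0.62, Psmb6 at -0.45 and Psmb7 at 0.47. Library size alone shifts the median of all genes by 1.88, and all 46 members then stood above 0.

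Among immunoproteasome genes Psmb9 had 154 and 107 CPM in MPC-11 against 243 and 283 CPM in flox/+ (-1.02 ± 0.40, edgeR adjusted p = 0.105), without overlap. Psmb10 had 114 and 68.3 CPM against 149 and 208 CPM (-0.97 ± 0.43, edgeR adjusted p = 0.145), without overlap, and Psmb8 had 664 and 495 CPM against 651 and 1086 CPM (-0.59 ± 0.46), with overlap. Psme1 stood at 0.38 and Psme2 at -0.12. In counts Psmb8 over Psmb5 was 9.13 and 11.7 in MPC-11 against 6.83 and 9.02 in flox/+, a log2 difference of 0.40 without overlap. Psmb9 over Psmb6 was lower in MPC-11 by the values given above (-0.55), and Psmb10 over Psmb7 was 1.86 and 1.45 against 3.40 and 6.02 (-1.46), both without overlap.

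Of 12 genes that supply peptides to class I and carry them to the cell surface, 7 fell past edgeR's adjusted test in MPC-11 and 0 rose, against 15.6% and 12% of all genes. B2m had 92.3 and 96.1 CPM in MPC-11 against 3357 and 3608 CPM in flox/+ and fell by 5.21 ± 0.54 on the log2 scale (edgeR adjusted p = 0.000791). Tap1, a transporter subunit, had 31.5 and 40.9 CPM against 172 and 202 CPM and fell by 2.37 ± 0.40 (edgeR adjusted p = 0.00588), and Tap2 stood at -0.96 and did not pass. Canx, a chaperone of class I folding, stood at 0.61 without overlap and did not pass. The peptide editors Tapbp and Tapbpl fell by 2.29 and 2.43, and the heavy chain genes H2-K1 and H2-D1 by 3.43 and 3.06. The H2 genes are polymorphic between strains, so their counts also depend on how well the reads match the reference; MPC-11, labelled C57BL/6, is generally described as a BALB/c line. Nlrc5 had 0 counts in both MPC-11 libraries and was at least 150-fold lower than in flox/+, taking a floor of 3 counts over the 2 libraries, and at least 44.0-fold lower without the first flox/+ library.

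Of 13 interferon signalling genes 7 fell, against 15.6% of all genes, and 1, Ifnar2, rose by 1.54, against 12%. Irf2 fell by 1.96, Irf9 by 1.71 and Irf1 by 1.58. Jak1, Irf8 and Socs1 had 0 counts in both MPC-11 libraries, and by the same floor were at least 2794, 2265 and 106-fold lower (Socs1 at least 64.1-fold without the second flox/+ library). Of the other lists, Ufd1 of the ubiquitin and shuttling genes fell by 1.77, and 0 of 13 proteasome cofactors (Pomp at 0.64) and 0 of 8 regulators (Nfe2l1 at -0.23) passed. Whether these genes differ from the immunoproteasome genes in their change was not tested. Some macrophage, T cell and erythroid markers, among them Lyz2, Csf1r, Lck and Hba-a1, had 0 counts in both MPC-11 libraries and were present in both flox/+ libraries. Of 12 macrophage markers 10 fell past edgeR's adjusted test and 1, Cd68, rose, against 15.6% and 12% of all genes. Cd68 had 983 and 1149 CPM in MPC-11 against 42.7 and 27.2 CPM in flox/+. The part of such cells in these values was not tested.

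**Figure D5:**
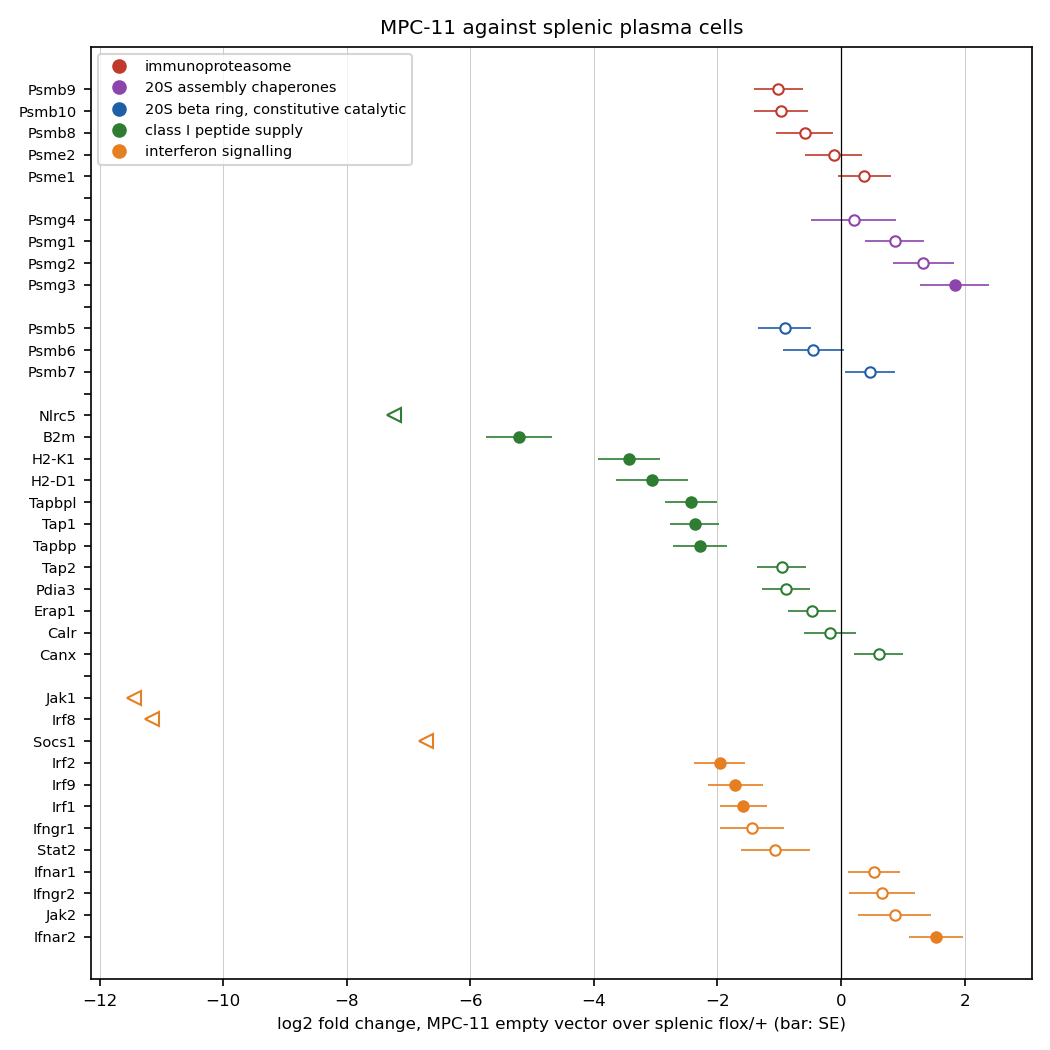
Log2 fold change of immunoproteasome, assembly, constitutive catalytic, class I and interferon signalling genes in MPC-11 empty vector over splenic flox/+ plasma cells (bars: SE; filled points passed edgeR's adjusted test). Open triangles mark genes with 0 counts in MPC-11, drawn at their bound, and 1 of the 13 interferon signalling genes is not drawn; B2m lies at -5.21 and the 5 immunoproteasome genes between -1.02 and 0.38.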

How the data were processed

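RNA of 10 mouse and 4 human libraries was prepared with a Nextera kit, per the labels' protocols. The authors deposited 1 table of read counts per gene for each species and a file of log2 FPKM per library; per the submitters' processing notes the tools were Subread 1.6.0, featureCounts and limma, with builds mm10 and hg38. How multi-mapped reads, strand and the log2 FPKM scaling were treated is not given in the sources used here. Rows without a gene name held 0.0373 to 0.306% of counts and were left out.

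Counts were fitted per comparison with edgeR 4.0.16 (quasi-likelihood F test, TMM factors, filterByExpr with a minimum count of 10, R 4.3.3), with Benjamini-Hochberg adjustment over all genes tested and a threshold of 0.05. Groups of 2 libraries were compared without covariates. Alternatives were RLE or no scaling, DESeq2 1.42.0, no filter, immunoglobulin genes left out, limma 3.58.1 on log2 FPKM, all libraries in 1 fit, the replicate number as a block, and leaving out each library. DESeq2 also served as the second tool where 0 genes were called. CPM are TMM-scaled and all library totals are those of the deposited counts, so precision is set by 2 libraries a group. Intervals cover counting error only.

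Data were simulated with 50 genes changed at each of 1.5, 2, 4 and 8-fold, all others unchanged and no scaling differences between libraries. Of 50 changed 4-fold, edgeR recovered 3 in the splenic, 19 in the MPC-11, 30 in the MM.1S and 0 in the line comparison. Of 50 changed 2-fold it recovered 0, 0, 5 and 0, and it called 5, 5, 8 and 0 unchanged genes. In the same order DESeq2 recovered 3, 3, 16 and 4 of those changed 2-fold, and called 72, 34, 46 and 61 unchanged genes. The real line comparison had 27.7% of genes called, unlike this setting, so its simulated recovery does not carry over to it. The real splenic libraries had TMM factors of 0.700 to 1.47, also unlike this setting. The members, lists and tests were chosen with earlier results of these data known. Genes are named if called, if Psmb5 to Psmb10, Psme1 or Psme2, if among the 6 highest or 6 lowest log2 fold changes with a mean of at least 10 CPM, or if the largest change of their role; of the 5 pathway lists, those called and Pomp, Nfe2l1, Tap1, Tap2, B2m, Irf1 and Nlrc5. Some genes that this rule names are not reported here. Genes named beside these were chosen after their values were seen. The ISRE and EICE promoter words are cores without their last base, shortened after the longer forms had been searched, which fewer promoters held.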

Additional observations from a re-analysis of the deposited data

How the results depend on the processing

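No proteasome gene was called in the splenic or MPC-11 IRF4 comparison under any alternative run; in MM.1S 0 to 2 were called when 1 library was left out (PSMD11 and PSMC3IP without the first empty-vector library). At library size alone the members' median was 0.65 in the splenic comparison. Leaving out 1 library gave medians of -0.36 to -0.10 in splenic cells, -0.41 to 0.050 in MPC-11 (0.050 without the first empty-vector library) and -0.43 to -0.022 in MM.1S. With the replicate number as a block, 0 members were called and the median was -0.22 in MPC-11 and -0.19 in MM.1S, and on log2 FPKM -0.20 in splenic cells. Of all genes, these fits called 0, 208 and 377, against 2, 1 and 0 without the block. Deviations of libraries with the same number had correlations of -0.08, 0.09 and -0.01 in the same order. These correlations do not settle whether the numbers pair libraries. For MPC-11 over splenic flox/+, members called were 0 with RLE, 0 with limma on log2 FPKM, 3 with DESeq2 and 4 with all libraries in 1 fit. At library size alone 42 were called, the median was 2.10 and all 15 members below 0 changed sign. Among these were Psmc4 (1.29), Psmb6 (1.40), Psmb2 (1.11), Psmb8 (1.30) and Psme2 (1.75). Leaving out 1 library gave medians of 0.02 to 0.49. No paired analysis was possible there because the flox/+ count columns carry no replicate number. Members lower in all 3 IRF4 comparisons numbered 26 with RLE and with immunoglobulin genes left out, 0 at library size alone and 6 without the highest control libraries, alternatives chosen after seeing the data. Ratio differences without any 1 library, also chosen after seeing the data, ranged over -0.068 to 0.33 (Psmb8/Psmb5), -0.32 to 0.50 (Psmb10/Psmb7) and -0.42 to 0.44 (Psme1/Psme3) in splenic cells, -0.40 to 0.37 (Psme1/Psme3) in MPC-11, and -0.17 to 0.021 (PSMB10/PSMB7) and -0.36 to 0.36 (PSME1/PSME3; 0.016 on log2 FPKM) in MM.1S. With 2 libraries a group, changes as small as those of most members could not be called; the causes of these dependences were not tested.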

Other observations

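The bone marrow plasma cells had 1 library, as had the follicular B cells, so their differences have no replicate check and intervals cover counting error only. As a share of counts outside immunoglobulin genes, 29 of 46 members were lower in bone marrow plasma cells, against 59.2% of all genes, with a median log2 ratio of -0.15 against -0.29. Under TMM scaling 21 were lower and the median was 0.04. The catalytic gene Psmb6 stood at 0.47 (95% exact interval 0.41 to 0.53), from 479 CPM in bone marrow plasma cells and 345 CPM in follicular B cells. Psmb5 stood at 0.36 (0.26 to 0.45), with 187 and 146 CPM in the same order, and the activator Psme4 at 0.82 (0.60 to 1.03). Under TMM scaling Psmb6 stood at 0.66, Psmb5 at 0.55 and Psme4 at 1.01.

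Members below -1 were the lid deubiquitinase Psmd14 (-1.26), the 20S assembly chaperone Psmg3 (-1.21) and the 19S base chaperone Psmd10 (-1.21). That range held 28.5% of all genes. Under TMM scaling Psmd14 stood at -1.07, Psmg3 at -1.02 and Psmd10 at -1.02. Psme1 stood at -0.76 and Psme2 at -0.64. Psmb8 had 1439 CPM in bone marrow plasma cells and 1494 CPM in follicular B cells (-0.05), and Psmb9 had 444 and 453 CPM (-0.03). Psmb10 had 276 and 349 CPM (-0.34, interval -0.41 to -0.26). Under TMM scaling Psmb8 stood at 0.14, Psmb9 at 0.16 and Psmb10 at -0.15. In counts, Psmb9 over Psmb6 was 0.928 in bone marrow plasma cells and 1.31 in follicular B cells, Psmb8 over Psmb5 was 7.68 and 10.2, and Psmb10 over Psmb7 was 3.18 and 4.05.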
